A study of Mus musculus with 4 samples.

Results

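The genes described here encode the nuclear subunits of the oxidative phosphorylation machinery of mouse mitochondria. They were taken by symbol from the gene list of the series, as the Nduf genes of complex I, Sdha to Sdhd of complex II, the Uqcr genes of complex III, the Cox5 to Cox8 genes of complex IV and the Atp5 genes of complex V. The rule found 82 of 31053 listed genes, of which 35 belonged to complex I, 4 to complex II, 8 to complex III, 18 to complex IV and 17 to complex V. Ndufa4 and Ndufa4l2 were counted with complex IV, in which Ndufa4 is now placed. The rule leaves out the Cox4 genes, Cyc1 and Ndufab1, and takes in Atp5s, Cox7a2l and Ndufa4l2, which were not counted as subunits in the strict sense. An alternative with subunits in the strict sense drops Atp5s, Cox7a2l and Ndufa4l2 and adds Cox4i1, Cox4i2, Cyc1 and Ndufab1. Atp5o is listed under 2 identifiers, and one of them held no UMI in any cell kept.

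Single-cell RNA-seq (10x Genomics) was made from the brain hemisphere on the operated side of male mice 8 weeks old. There was 1 library for sham surgery and 1 each for days 1, 3 and 7 after transient middle cerebral artery occlusion (tMCAO), a stroke model in which a filament closes the artery and is then withdrawn so that blood returns. The methods name C57/BL6 mice, the sham operation went through the same surgery without the occlusion, and the series text places the sham tissue at day 7. How many mice went into a library is not given in the sources used here, so no difference between libraries could be tested, and every interval below covers counting error only.

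The oxidative phosphorylation chain passes electrons from NADH (complex I) or succinate (complex II) through complex III to oxygen at complex IV, and the proton gradient that this builds drives ATP synthesis at complex V. Complexes I, III, IV and V are mosaics, with a few subunits encoded by mitochondrial DNA and the rest by nuclear genes, so that both genomes have to supply them. Complex II is nuclear throughout and also works in the citric acid cycle. Microglia, the resident macrophages of the brain, and the endothelial cells that line its vessels are both known to change their metabolism after ischemia.

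Cells with 200 to 3000 genes and no more than 10% of UMIs from mitochondrial genes were kept, 7562 in the sham library, 13376 at day 1, 9378 at day 3 and 14044 at day 7. A cell joined a class when at least 3 of the 8 markers of that class were found in it and it held at least 2 more of them than of any other class. These classes are called microglia-like, endothelial-like and so on, and 92.8% of the kept cells joined one. The microglia-like class held 116, 443, 335 and 251 cells in sham and at days 1, 3 and 7, and the endothelial-like class held 4766, 6753, 5659 and 9003 cells in the same order. Levels are counts per 1000000 UMIs (CPM) of the summed cells of a class. One UMI stands for the 3′ end of one transcript, so levels of different genes were compared without a correction for length. In the 4 libraries, in the order sham and days 1, 3 and 7, the member genes took 2.33%, 2.97%, 2.51% and 1.87% of the UMIs of the kept cells. Between 12 and 50 cell barcodes were shared by any pair of libraries.

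Promoters of 4 members are shown because they stand for the range of the day 1 response in microglia-like cells described further on. Uqcr10 and Uqcr11, small accessory subunits of complex III, had the largest day 1 differences there on the log2(CPM + 10) scale, Atp5j2, a small membrane subunit of ATP synthase, came next on that scale, and Uqcrc1, a core protein of complex III, did not pass the 1.5-fold limit. Each sequence runs 5′ to 3′ from 250 bases before to 50 after the start of the gene in the RefSeq annotation of GRCm38.p6, with the coding strand shown. The windows are chr11:4704295-4704594 (minus strand) for Uqcr10, chr10:80406772-80407071 (minus) for Uqcr11, chr9:108936398-108936697 (plus) for Uqcrc1 and chr5:145191492-145191791 (minus) for Atp5j2. Capitals mark the letters of CGCANGCGC, the binding motif of NRF1, and of CCGGAAG, the core of the ETS motif, on either strand. NRF1 and the ETS protein GABP are known regulators of nuclear genes for mitochondrial proteins.
Uqcr10: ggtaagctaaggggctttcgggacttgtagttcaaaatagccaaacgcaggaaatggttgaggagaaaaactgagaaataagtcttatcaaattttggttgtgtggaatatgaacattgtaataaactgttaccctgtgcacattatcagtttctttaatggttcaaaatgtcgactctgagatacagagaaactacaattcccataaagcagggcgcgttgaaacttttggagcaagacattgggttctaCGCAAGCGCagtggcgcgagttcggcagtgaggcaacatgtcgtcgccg
Uqcr11: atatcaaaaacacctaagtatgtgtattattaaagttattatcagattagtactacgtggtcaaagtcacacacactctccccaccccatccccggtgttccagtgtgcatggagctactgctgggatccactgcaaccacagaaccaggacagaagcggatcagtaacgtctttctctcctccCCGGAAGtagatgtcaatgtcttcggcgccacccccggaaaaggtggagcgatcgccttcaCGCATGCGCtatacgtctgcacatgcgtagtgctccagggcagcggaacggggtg
Uqcrc1: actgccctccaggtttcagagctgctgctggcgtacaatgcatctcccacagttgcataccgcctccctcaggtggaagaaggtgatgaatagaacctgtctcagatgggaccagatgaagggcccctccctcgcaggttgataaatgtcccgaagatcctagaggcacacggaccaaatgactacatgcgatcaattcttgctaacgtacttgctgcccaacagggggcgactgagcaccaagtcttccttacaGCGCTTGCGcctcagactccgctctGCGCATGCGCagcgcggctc
Atp5j2: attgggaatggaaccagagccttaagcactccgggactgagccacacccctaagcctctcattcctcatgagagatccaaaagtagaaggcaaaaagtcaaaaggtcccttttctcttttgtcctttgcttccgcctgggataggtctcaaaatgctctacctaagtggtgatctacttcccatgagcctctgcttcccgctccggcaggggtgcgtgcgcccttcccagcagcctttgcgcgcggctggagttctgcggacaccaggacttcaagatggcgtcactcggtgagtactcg

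Promoters were found for 66 of the 81 member symbols. NRF1 letters stood in 23 of them (34.8%), against 7.12% of the promoters of all 27025 genes in the same table, and ETS letters in 16 (24.2%), against 9.93%. One motif or the other was in 50% of the member promoters and in 15.6% of all promoters. The share differed by complex. Either motif was found in 10 of 13 promoters of complex V, 4 of 5 of complex III, 3 of 3 of complex II, 13 of 31 of complex I and 3 of 14 of complex IV. The NRF1 letters overlap themselves on the opposite strand in the form GCGCATGCGC, so that matches were counted per promoter. A match is a run of letters and not a binding site. The NRF1 letters were chosen after the promoters of Uqcr10, Uqcr11, Ndufa4 and Cox6a1 had been viewed. The comparison set holds every gene with a promoter, expressed here or not. These shares are descriptions with no test. Uqcrc1 held the NRF1 letters and Atp5j2 neither motif, so among these 4 genes the letters did not follow the size of the day 1 ratio.

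Summed over the 82 members, the level was highest on day 1 in each of the 5 classes that had at least 50 cells in every library. The difference was largest in microglia-like cells. Their summed level was 9899 CPM (95% interval 9594 to 10212) in sham, 24405 CPM (24191 to 24621) on day 1, 13763 CPM (13554 to 13974) on day 3 and 11314 CPM (11103 to 11527) on day 7. The day 1 level was 2.47-fold that of sham (2.39 to 2.55), day 3 was 1.39-fold (1.34 to 1.44) and day 7 was 1.14-fold (1.10 to 1.19). The sham level of microglia-like cells was the lowest of the 5 classes, and on day 1 it lay between those of sham oligodendrocyte-like cells (23977 CPM) and day 1 endothelial-like cells (26414 CPM).

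**Figure D1:**
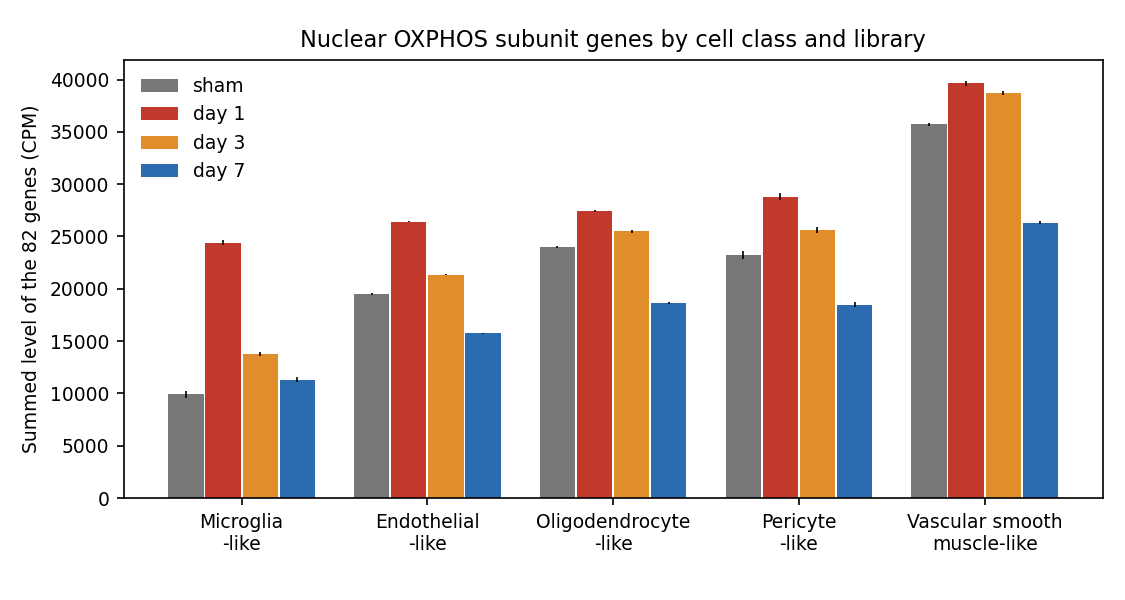
Summed level of the 82 genes in CPM for 5 cell classes, with 1 bar per library (sham and days 1, 3 and 7) and exact Poisson 95% intervals as error bars. Day 1 is the highest bar in each class, and day 7 lies below sham in 4 classes and above it in microglia-like cells.

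In endothelial-like cells, the summed level was 19507 CPM (19439 to 19576) in sham, and the 3 stroke libraries stood at 26414, 21362 and 15748 CPM in order of day. The ratios to sham were 1.35 (1.35 to 1.36), 1.10 (1.09 to 1.10) and 0.807 (0.803 to 0.811). Oligodendrocyte-like cells (1.14, 1.06 and 0.778), pericyte-like cells (1.24, 1.10 and 0.794) and vascular smooth muscle-like cells (1.11, 1.08 and 0.737) had the same order of days. On day 7, then, the summed level was below sham in every class compared except the microglia-like class. The 8 markers of choroid plexus cells, the class with the highest member level, moved in the same directions in these 4 classes. They were above sham on days 1 and 3 and below it on day 7. They were highest on day 1 in pericyte-like and vascular smooth muscle-like cells, and on day 3 in endothelial-like and oligodendrocyte-like cells. In microglia-like cells they were highest on day 3 and below sham on day 7, unlike the members. They summed to 1894, 3106, 3249 and 1231 CPM in endothelial-like cells in sham and at days 1, 3 and 7, and to 2168, 4067, 2906 and 1126 CPM in pericyte-like cells. In vascular smooth muscle-like cells they summed to 948, 1864, 1488 and 601 CPM, in oligodendrocyte-like cells to 772, 1541, 1573 and 540 CPM, and in microglia-like cells to 1596, 1647, 1971 and 822 CPM. Of the 8 markers 7 or 8 were found in each library of the first 4 classes and 6 to 8 in microglia-like cells. Their part in the member levels was not tested. All these ratios share the sham library, so a sham library that stood apart would shift each of them.

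The day 1 ratio in microglia-like cells differed by complex. Complex I went from 3534 CPM in sham to 7444 CPM on day 1 (2.11-fold, 1.99 to 2.23), complex II from 223.8 to 387.6 CPM (1.73-fold, 1.39 to 2.18), complex III from 1059 to 2918 CPM (2.76-fold, 2.497 to 3.05), complex IV from 2238 to 6384 CPM (2.85-fold, 2.67 to 3.06) and complex V from 2845 to 7270 CPM (2.56-fold, 2.41 to 2.72). The intervals of complexes III and IV overlapped each other and lay above those of complexes I and II. In endothelial-like cells the order was similar, with complex III at 1.501-fold, complex IV at 1.46-fold, complex V at 1.33-fold and complex I at 1.28-fold, whereas complex II stood at 0.973-fold (0.940 to 1.01), an interval that includes 1.

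Gene by gene, a member was said to rise or fall when it passed 1.5-fold against sham on the log2(CPM + 10) scale, among genes with a mean of at least 50 CPM over the 4 libraries of the class. This limit is a description of size and no test. Where members are ranked, the order is on this scale and among those that reached the expression limit. In microglia-like cells 71 members reached the expression limit, and 54 of them rose on day 1 and 0 fell. Of all 2656 genes at that limit, 22.9% rose and 26.2% fell. The median log2 ratio of the members was 1.15, beside -0.05 for all genes. The members that rose were 24 of 34 in complex I, 1 of 3 in complex II, 5 of 8 in complex III, 10 of 11 in complex IV and 14 of 15 in complex V. On day 3, 20 members rose and 0 fell (12.8% and 9.41% of all genes), and on day 7, 5 rose and 1 fell (9.49% and 7.94%). With cells of up to 6000 genes kept, 36 members rose on day 3. The day 7 count, rises and falls together, ran from 2 to 19 over the alternatives, so it depends on the settings. Shares of all genes under the alternatives are not given.

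In endothelial-like cells 72 members reached the limit. On day 1, 13 rose and 0 fell, where 5.08% of all 3625 genes rose and 7.83% fell. On day 3, 0 rose and 0 fell (4.66% and 5.24% of all genes), and on day 7, 0 rose and 2 fell (7.09% and 2.98%). The shift on day 7 was small for each gene but wide, since 69 of the 72 lay below sham and the median log2 ratio was -0.31, beside 0.01 for all genes. Other genes were lower as well. The 897 other genes with transcripts under 1000 nt had a median of -0.18, and of 48 mitochondrial ribosomal protein genes 0 lay above sham (median -0.29).

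**Figure D2:**
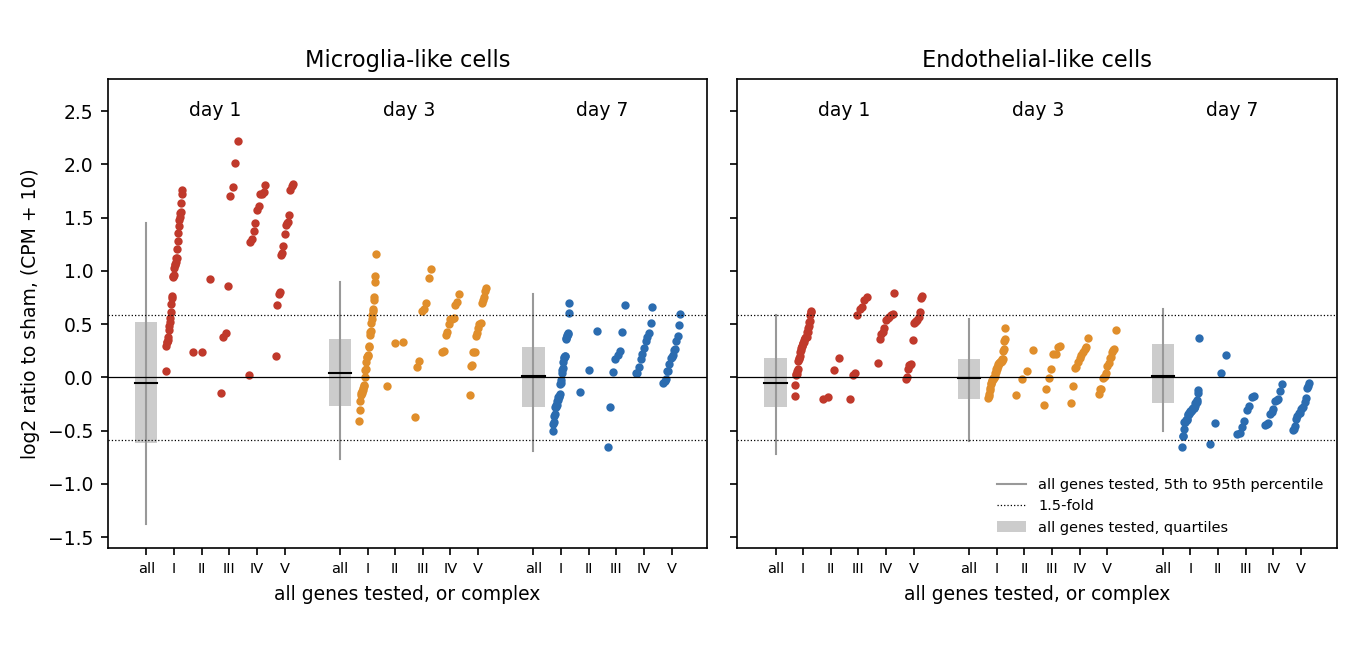
log2 ratio of (CPM + 10) to sham for each member that reached the expression limit, by complex and day, in microglia-like cells (left) and endothelial-like cells (right), with 1 point per gene. Grey bars and lines give the quartiles and the 5th to 95th percentiles of all genes tested, and dotted lines mark 1.5-fold. On day 1 the 71 microglia-like points have a median of 1.15 against -0.05 for all genes, and the endothelial-like points of day 7 lie mostly below 0.

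Complex III held both ends of the microglia-like range on day 1. Uqcr10 (ENSMUSG00000059534, chr11:4701973-4704342 in GRCm38) had 92.0 CPM in sham and 466, 197 and 153 CPM on days 1, 3 and 7, a day 1 ratio of 5.06 (3.65 to 7.24). It was above sham on all 3 days. Uqcr11 had 142 CPM in sham and 601, 279 and 162 CPM on the following days, with a day 1 ratio of 4.24 (3.25 to 5.63). Uqcrc2 (chr7:120635176-120659524), the other core protein of the complex, went the other way, with 94.5 CPM in sham and 84.1, 70.6 and 56.6 CPM on days 1, 3 and 7. Its day 1 ratio of 0.890 (0.623 to 1.30) was the lowest of the members tested, with an interval that includes 1, and its day 7 ratio was 0.599 (0.389 to 0.931). Uqcrc2 was the only member that fell on day 7 in this class. Uqcrc1 had a day 1 ratio of 1.33 (0.9504 to 1.92) and Uqcrfs1, the Rieske iron-sulfur protein, one of 1.37 (0.961 to 2.02). The 5 members of complex III that rose on day 1, Uqcr10, Uqcr11, Uqcrb, Uqcrh and Uqcrq, are small subunits, and the 3 that did not are the core proteins and the Rieske protein.

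**Figure D3:**
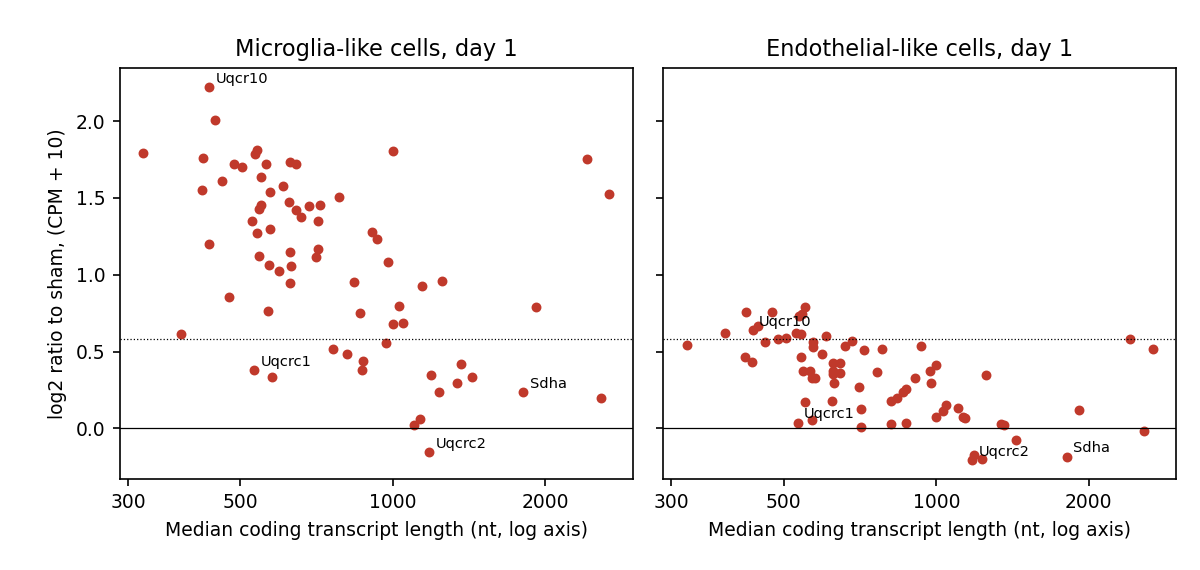
log2 ratio of (CPM + 10) on day 1 to sham against the median length of the coding transcripts of each member (nt, log axis) in microglia-like cells (left) and endothelial-like cells (right), with 1 point per gene. Members under 1000 nt lie higher than longer ones in both classes, with medians of 1.32 and 0.42 in microglia-like cells.

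Length followed the size of the change more widely. Across the 71 members in microglia-like cells, the day 1 log2 ratio correlated with the log of the median coding transcript length of the gene at r = -0.51, and across 2641 genes of all kinds at r = -0.37. Genes share their libraries and are not independent, so these values are descriptions. Of 52 members under 1000 nt 45 rose, and of 19 longer members 9 rose. Among all genes under 1000 nt, 42.1% rose, and without the members their median log2 ratio was 0.36, beside 1.32 for the short members. In endothelial-like cells r was -0.57 over 72 members and -0.25 over 3605 genes. On day 7 it was 0.04 over the members and 0.41 over all genes in endothelial-like cells, and -0.23 and 0.01 in microglia-like cells. The median length counts short alternative transcripts too, and it places the core subunits Uqcrc1 at 533 nt and Ndufs1 at 651 nt. It also places Ndufb2 at 2413 nt and Atp5g1 at 2675.5 nt, so these count among the longer members that rose. Whether length has a part in the differences was not tested.

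In complex I, the largest ratios of the microglia-like class on day 1 included Ndufb2, an accessory subunit of the membrane arm, with 49.7 CPM in sham, 192 on day 1, 90.6 on day 3 and 69.0 on day 7 (day 1 ratio 3.86, 2.46 to 6.39). The counts of Ndufb2 are uncertain because the annotation places another listed gene over it on the same strand, as for Ndufa13, Ndufb8, Ndufb9 and the 2 Atp5o entries. Ndufa1, an accessory subunit that is needed for assembly of the complex, had 92.0 CPM in sham and 290, 218 and 124 CPM on days 1, 3 and 7. Its day 1 ratio was 3.15 (2.26 to 4.52), and its day 3 ratio of 2.37 (1.67 to 3.44) was the largest of day 3. Ndufc1 went from 94.5 CPM to 287 CPM on day 1 and was at 76.2 CPM on day 7. Ndufa3 went from 122 to 293 CPM on day 1 and to 108 CPM on day 7, and Ndufv3, a small subunit of the NADH-binding module, from 99.5 to 284 CPM and then to 115 CPM. These 5 accessory subunits therefore rose on day 1, and none of them passed the limit in either direction on day 7. The study names the same 5 genes for a microglia subcluster that it ties to day 1 in these libraries. Their day 1 rise is thus not an independent observation.

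Of the core subunits of complex I, Ndufv1 and Ndufs1 had day 1 ratios under 1.5. Ndufv1, which carries the NADH site, had 49.7 CPM in sham and 65.4, 53.2 and 34.0 CPM on days 1, 3 and 7 (day 1 ratio 1.32, 0.819 to 2.22). Ndufs1, the largest iron-sulfur subunit, was under the expression limit, with 11 UMIs in sham and 56 on day 1, which are 27.4 and 27.5 CPM. Ndufs4 and Ndufs6 had the lowest day 3 ratios together with Uqcrc2, at 0.722 (0.465 to 1.14) and 0.788 (0.537 to 1.18), and neither passed the limit. Ndufv2 stood at 0.675 (0.444 to 1.04) on day 7. Ndufa7 had the third largest ratio of day 3, 2.02 (1.48 to 2.81), and Ndufa6 the largest of day 7, 1.69 (1.16 to 2.54). Accessory subunits thus stood at both ends of the day 3 range, since Ndufs4 and Ndufs6 are accessory too.

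Complex II, the smallest set, had 3 members at the expression limit in microglia-like cells, and Sdhb, the iron-sulfur subunit, rose on day 1 from 94.5 to 189 CPM (1.999-fold, 1.43 to 2.87). Sdha, the flavoprotein that oxidises succinate, had 52.2 CPM in sham and 63.5, 68.2 and 74.1 CPM on days 1, 3 and 7, with a day 7 ratio of 1.42 (0.863 to 2.43). In endothelial-like cells Sdha was below sham on day 1 (0.870, 0.811 to 0.932) and above it on day 7 (1.17, 1.10 to 1.25), and Sdhd, a membrane anchor, had one of the lowest endothelial-like ratios of day 7, 0.610 (0.565 to 0.657).

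In complex IV, the 3 genes of highest level over the classes, Cox8a, Cox6c and Cox7c, all rose in microglia-like cells on day 1. Cox8a had 438 CPM in sham and 1216, 705 and 630 CPM on days 1, 3 and 7 (day 1 ratio 2.78, 2.38 to 3.25). Cox6c went from 246 to 754 CPM on day 1 and Cox7c from 331 to 814 CPM. Ndufa4, also among the 5 highest members over the classes, had 224 CPM in sham and 705, 304 and 231 CPM on days 1, 3 and 7 (day 1 ratio 3.15, 2.54 to 3.94). Cox5a, which lies on the matrix side of the enzyme, had 114 CPM in sham and 400 CPM on day 1 (3.50, 2.60 to 4.82), and Cox7b had 69.6 CPM in sham, 268 on day 1 and 116 on day 7, where it was still 1.67-fold (1.10 to 2.63) above sham. The exception was Cox7a2l, which takes part in joining complexes III and IV into supercomplexes, at 147 CPM in sham and 149 CPM on day 1 (1.02, 0.766 to 1.37). In endothelial-like cells Cox8a had the largest day 1 ratio among the members at the expression limit, 1.75 (1.70 to 1.79), going from 559 to 975 CPM.

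In complex V, Atp5j2 went from 206 CPM in sham to 750 CPM on day 1 in microglia-like cells (3.63, 2.91 to 4.59) and was at 371 and 248 CPM on days 3 and 7. Atp5e, the epsilon subunit of the rotating stalk, went from 368 to 1273 CPM (3.46, 2.93 to 4.11). The 3 genes that encode the same ring subunit c, Atp5g1, Atp5g2 and Atp5g3, had similar day 1 ratios of 3.00, 2.78 and 2.96 with overlapping intervals. Atp5b, the catalytic beta subunit, went from 162 to 286 CPM (1.77, 1.37 to 2.33), and Atp5a1, the alpha subunit, from 221 to 256 CPM (1.16, 0.922 to 1.46). Atp5a1 was the only member of complex V at the expression limit that did not rise. In endothelial-like cells Atp5e had 574 CPM in sham and 980, 787 and 470 CPM on days 1, 3 and 7, while Atp5a1 stayed between 251 and 260 CPM in all 4 libraries.

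The remaining extremes of endothelial-like cells fell into the same groups of genes. Uqcrh, the hinge protein of complex III, went from 354 to 605 CPM on day 1 (1.71, 1.66 to 1.77). The lowest ratios of day 1 were those of Uqcrc2 (0.857, 0.807 to 0.911), Sdhd (0.856, 0.794 to 0.922) and Sdha. On day 3 Ndufb2 was highest at 1.41 (1.34 to 1.49), followed by Atp5e and Cox8a, and Uqcrc2, Cox7a2l and Ndufa10 were lowest at 0.823, 0.842 and 0.859. On day 7 Ndufa6 stood apart at 1.31 (1.25 to 1.37), above Sdha and Sdhc, and Ndufv2 (0.613, 0.579 to 0.649), Sdhd and Ndufs8 (0.655, 0.614 to 0.699) were lowest. Ndufv2 and Sdhd were the 2 members that fell.

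In the other 3 classes fewer members passed 1.5-fold on day 1 than in microglia-like or endothelial-like cells, whereas on day 7 more fell. In pericyte-like cells, with 74 members at the limit, 10 rose on day 1 (7.74% of all genes rose), among them 4 of the 8 of complex III, and 0 fell (7.34%). On day 3, 1 rose (5.15%) and 0 fell (2.81%), and on day 7, 1 rose (13.1%) and 8 fell (5.3%). The gene that rose on days 3 and 7 was Ndufs1, named after its values were seen. In vascular smooth muscle-like cells 0 of 74 rose or fell on day 1 (4.24% and 5.79% of all genes) or day 3 (2% and 1.72%), and 13 fell on day 7 (2.83%), 5 of them in complex IV, while 0 rose (11.4%). In oligodendrocyte-like cells 0 of 73 rose or fell on day 1 (4.41% and 5.89%) or day 3 (1.58% and 1.01%), and on day 7, 5 fell (5.35%) and 0 rose (10.9%). For the accessory subunits Ndufb2, Ndufa1, Ndufa3, Ndufc1 and Ndufv3, the day 1 ratio in these classes ran from 1.13 to 1.47, and the day 7 ratio from 0.611 to 0.809.

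Over the 71 members at the limit in all 5 classes, 41 were above sham on day 1 in each class, by any amount, and 1, Uqcrc2, was below it in each. Of all 1390 genes at the limit in the 5 classes, 24.2% were above and 17.2% below in each. On day 3, 32 members were above in each class and 0 below in each, where 26.5% and 10.4% of all genes were. On day 7, 2 were above, Ndufa6 and Sdha, and 21 were below, where 17.3% and 24.96% of all genes were. The day 7 ratio of Ndufa6 was 1.69 in microglia-like, 1.31 in endothelial-like, 1.07 in oligodendrocyte-like, 1.31 in pericyte-like and 1.26 in vascular smooth muscle-like cells. The 5 classes share the 4 libraries, so the classes are not independent of each other.

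The mitochondrial genome encodes the other subunits of the same complexes, and its transcripts differed less from sham on day 1 in microglia-like cells. In sum those transcripts were highest on day 1 in microglia-like and pericyte-like cells (1.07-fold in the latter, 1.05 to 1.08). In the other classes compared those transcripts were below sham on day 1. Summed over 13 genes, their level in microglia-like cells was 28830 CPM in sham, 32018 CPM on day 1 (1.11-fold, 1.09 to 1.13), 21052 CPM on day 3 (0.730-fold, 0.714 to 0.747) and 28026 CPM on day 7 (0.972-fold). Of 12 that reached the limit 0 rose on day 1 and 1 fell (22.9% and 26.2% of all genes), and on day 3, 5 fell (9.41%). The ratio of mitochondrially encoded to nuclear UMIs in this class was 2.91 in sham and 1.31, 1.53 and 2.48 on days 1, 3 and 7. In endothelial-like cells it was 1.55 in sham and 1.08, 0.986 and 1.96. Day 3 was below sham for the mitochondrially encoded sum in all 5 classes, with ratios of 0.696 to 0.804. Cells over 10% mitochondrial UMIs had been left out, which limits how high this sum can be.

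**Figure D4:**
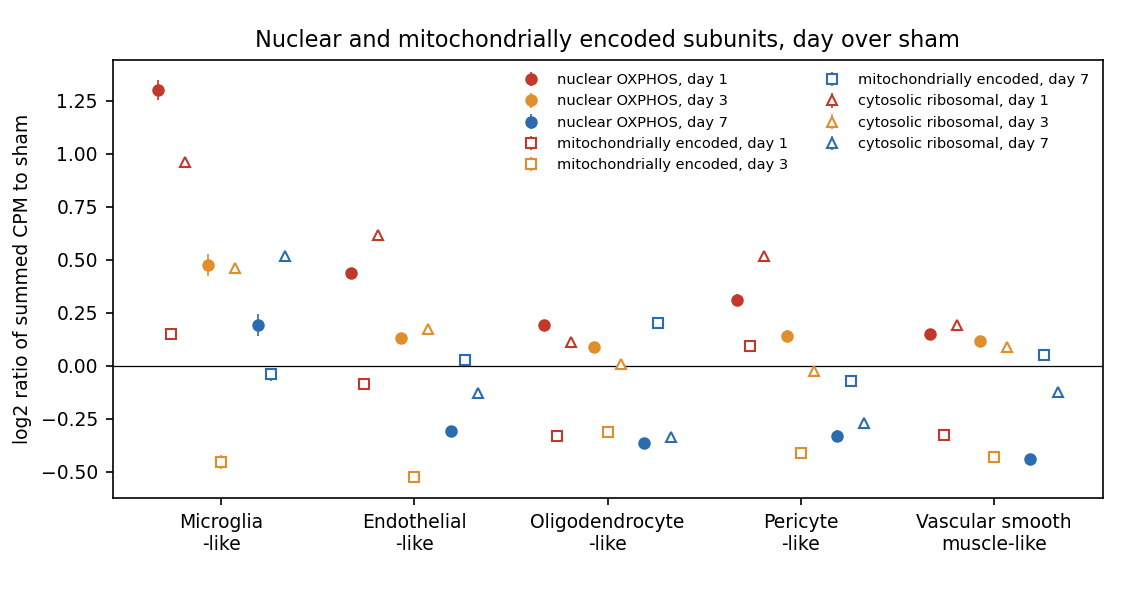
log2 ratio of summed CPM to sham on days 1, 3 and 7 in 5 cell classes for the 82 nuclear members (filled circles), the 13 mitochondrially encoded subunits (open squares) and the 95 cytosolic ribosomal protein genes (open triangles), with exact 95% intervals. In microglia-like cells on day 1 the nuclear members lie at 1.30, the ribosomal genes at 0.96 and the mitochondrially encoded subunits at 0.15.

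Genes of both ribosomes also rose on day 1 in microglia-like cells, where 22.9% of all genes rose and 26.2% fell. Of the cytosolic ribosomal protein genes 66 of 81 rose on day 1 and 1 fell, with a summed ratio of 1.95 (1.93 to 1.97), and of the mitochondrial ribosomal protein genes 18 of 27 rose and 0 fell (1.74, 1.64 to 1.85). On day 7 the ribosomal sum was still 1.43-fold above sham, where the members stood at 1.14. Subunits and carriers that the rule left out went with the members, as 6 of 7 rose (2.66-fold in sum), and Cox4i1, the common isoform of the largest nuclear subunit of complex IV, went from 266 to 684 CPM. Assembly factors of the complexes had a summed ratio of 1.31 (1.17 to 1.47). Of these, 4 of 34 reached the expression limit, and 4 of the 4 rose and 0 fell. Genes of mitochondrial biogenesis and import had a summed ratio of 1.21 (1.09 to 1.35), with 0 of 6 past the limit.

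The 2 neighbouring pathways of energy metabolism differed. Of the citric acid cycle genes 1 of 7 rose in microglia-like cells on day 1 and 0 fell, where 22.9% and 26.2% of all genes did. The sum of the cycle genes was 1.17-fold that of sham (1.03 to 1.34). Of the glycolysis genes 8 of 11 rose and 1 fell on day 1, and 9 rose and 1 fell on day 3 (12.8% and 9.41% of all genes). The summed ratios of glycolysis were 1.93 (1.80 to 2.08) and 1.80 (1.67 to 1.94). Between day 1 and day 3 the members of the oxidative chain thus went from 2.47 to 1.39, while the glycolysis sum stayed near its day 1 value. In endothelial-like cells glycolysis was higher on day 3 (1.54) than on day 1 (1.20), and the members were higher on day 1. The 7 HIF-linked mitochondrial genes, a list that holds Ndufa4l2, had a sum in microglia-like cells of 0.937-fold (0.771 to 1.15) on day 1.

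Several complex IV subunits have isoforms that are used in few tissues, and these were found in few classes. Ndufa4l2 (ENSMUSG00000040280, chr10:127514967-127517154), a relative of Ndufa4 that is known to be induced by hypoxia, was at 2264, 2426, 2417 and 1445 CPM in pericyte-like cells in sham and on days 1, 3 and 7, and at 649, 632, 621 and 402 CPM in vascular smooth muscle-like cells. Its level in pericyte-like cells over all libraries was 2138 CPM, beside a median of 4.38 CPM over the 15 classes described. It was among the members that fell on day 7 in both classes, with ratios of 0.638 (0.595 to 0.685) and 0.619 (0.589 to 0.650). Its day 1 ratios there were 1.07 and 0.973. In endothelial-like cells, where it was under the expression limit, it had 15.7 CPM in sham and 31.4, 13.4 and 8.93 CPM on days 1, 3 and 7 (day 1 ratio 1.997, 1.72 to 2.33). The 8 pericyte markers summed to 238, 346, 198 and 171 CPM in endothelial-like cells of the same libraries. The part of pericyte transcripts in these Ndufa4l2 values was not tested. Cox4i2, the other isoform of the Cox4 subunit and outside the rule, had the same pair of leading classes, with 1299, 1154, 1491 and 781 CPM in pericyte-like cells.

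Cox6a2 (ENSMUSG00000030785, chr7:128205435-128206387), known as the heart and muscle isoform of subunit 6a, had its highest level in microglia-like cells. It had 5, 75, 62 and 24 UMIs in sham and on days 1, 3 and 7, which are 12.4, 36.9, 51.5 and 24.7 CPM, and in pericyte-like cells 0 UMIs in every library, with upper limits of 2.78 to 5.42 CPM. The day 1 ratio was 2.97 (1.22 to 9.40) and the day 3 ratio 4.14 (1.68 to 13.2), on 5 sham UMIs. The common isoform Cox6a1 went from 107 to 277 CPM on day 1 in the same cells and was at 129 CPM on day 3. Cox6a2 was therefore higher on day 3 than on day 1 and Cox6a1 lower, though the intervals of the Cox6a2 levels overlapped (29.0 to 46.2 and 39.5 to 66.1 CPM).

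Choroid plexus-like cells had the highest summed level of the members, with 65144 CPM in sham (83 cells), 62845 CPM on day 1 (187 cells) and 46136 CPM on day 7 (119 cells). They also led for Cox8b, Cox6b2 and Cox7a1, which other tissues use as alternative isoforms. Cox8b had 114, 244 and 243 CPM there in sham and on days 1 and 7, and its next highest class over all libraries had 5.26 CPM. Cox6b2 had 151, 209 and 100 CPM and Cox7a1 103, 128 and 67.7 CPM. Of the members found at high levels in most classes, Atp5g1 (2182 CPM, 6.59 times the median of the classes) and Ndufa1 (1481 CPM, 6.61 times) differed most in these cells. Cox8c and Cox7b2 were near 0 throughout, with under 100 UMIs in all kept cells.

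**Figure D5:**
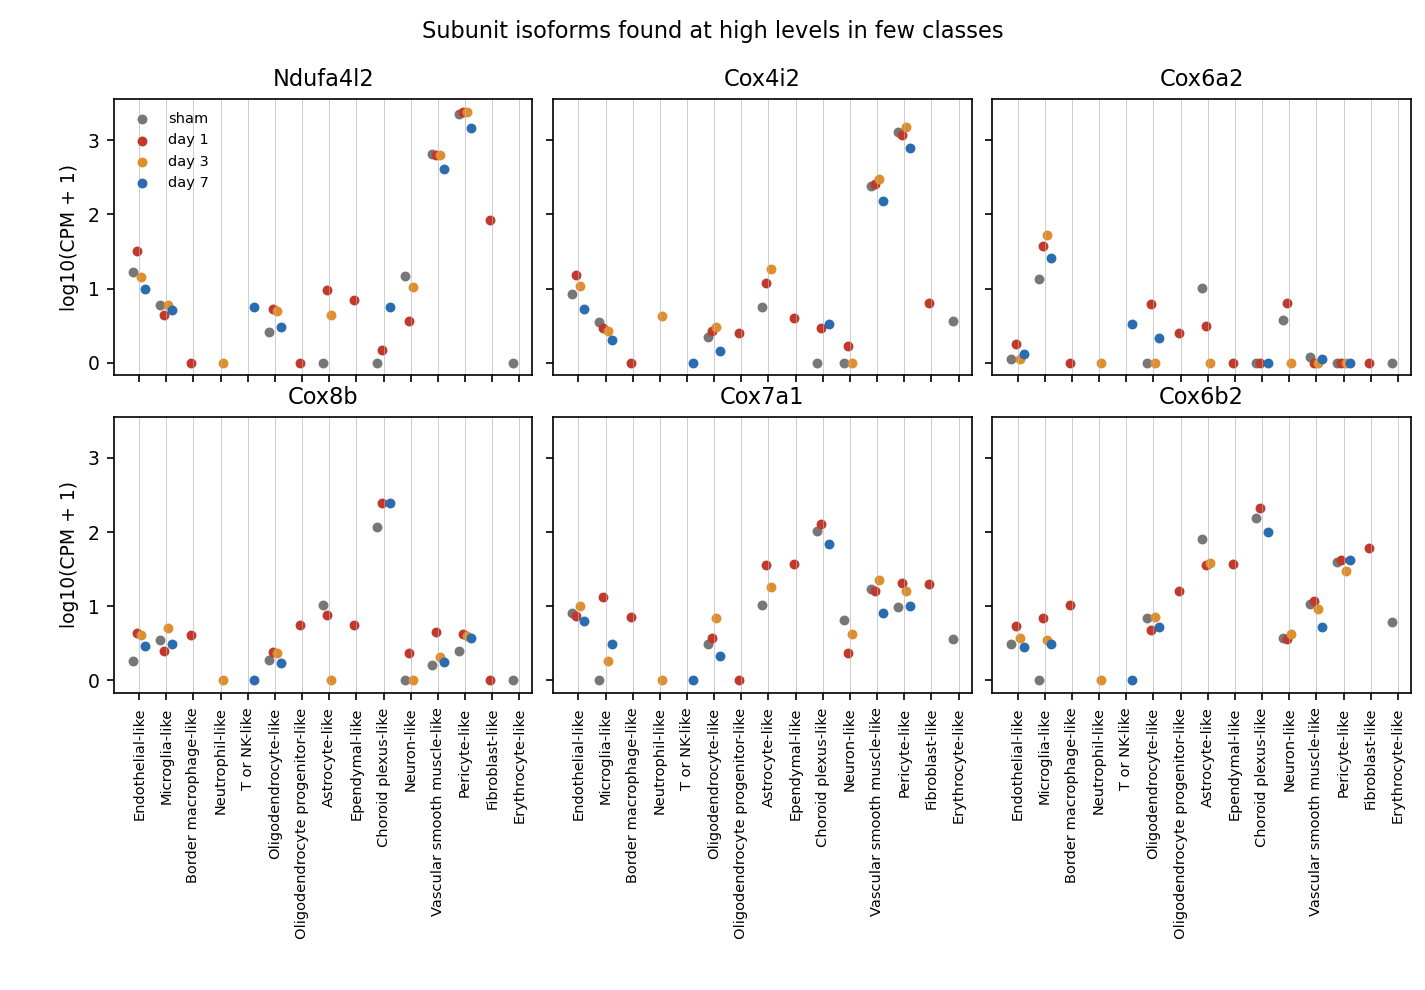
log10(CPM + 1) of 6 isoform genes by class, with 1 point per library in which the class held at least 50 cells (Cox4i2 lies outside the rule). Ndufa4l2 and Cox4i2 are highest in pericyte-like cells and then vascular smooth muscle-like cells, Cox6a2 is highest in microglia-like cells, and Cox8b, Cox7a1 and Cox6b2 are highest in choroid plexus-like cells.

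The series divides microglia by Itgb2, an integrin subunit. To compare them at one depth, each microglia-like cell was thinned to 1000 UMIs, which kept 93, 376, 246 and 197 cells of sham and days 1, 3 and 7 and left out the shallower ones. The members had a median of 9 UMIs per thinned cell in sham, 23 on day 1, 12 on day 3 and 10 on day 7, with quartiles of 6 to 13, 16 to 33, 9 to 17 and 6 to 14. The sham and day 1 quartiles did not overlap. Between cells with an Itgb2 UMI and cells without one, the ratio of the member sum was 0.877 (0.721 to 1.06) in sham and 0.957 (0.900 to 1.02) on day 1. The day 3 ratio was 0.938 (0.859 to 1.02) and the day 7 ratio 1.01 (0.898 to 1.12), from 15, 51, 49 and 34 cells with an Itgb2 UMI in sham and at days 1, 3 and 7. Each of these intervals includes 1. By complex, the interval left out 1 for complex V on day 3 alone (0.806, 0.678 to 0.953), 1 of 20 such ratios. The mitochondrially encoded subunits were higher in cells with an Itgb2 UMI on day 1 (1.09, 1.03 to 1.14) and day 3 (1.31, 1.24 to 1.39), and the cytosolic ribosomal protein genes were lower in sham (0.914, 0.858 to 0.974) and on day 3 (0.871, 0.845 to 0.897). A cell without an Itgb2 UMI at this depth may still express the gene.

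Markers of other cells moved within the microglia-like class. The summed level of its own 8 markers was 26358 CPM in sham and 19072, 25420 and 21547 CPM on days 1, 3 and 7. The 8 border macrophage markers summed to 7.46, 207, 26.6 and 161 CPM, with 2 of 8 found in sham and 7 on day 1, the 8 monocyte markers to 487, 848, 659 and 615 CPM, and the 8 erythrocyte markers to 6057, 1015, 2856 and 356 CPM. Median depth was 2279.5 UMIs per cell in sham and 3797, 2695 and 3297 on days 1, 3 and 7. In endothelial-like cells the median depth was 2859, 1867, 2213 and 1993 UMIs. The part of these differences in the member levels was not tested, and with the members thinned to one depth per cell the microglia-like day 1 ratio was 2.62.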

How the data were processed

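The authors deposited whole UMI counts per gene and cell for each of the 4 libraries, made with Cell Ranger 4.0.0 per the file headers (3.0.1 per the labels and methods, which also name Seurat 4.1.2). These counts were not normalized. The labels name a human genome build, but the gene identifiers are those of mouse, and positions and transcript lengths were read from the GENCODE vM21 annotation of GRCm38. Depth was 69392755 to 104023002 UMIs per library. Counts were summed by class and library and divided by the total of the class to give CPM, with exact Poisson intervals for levels and exact conditional intervals for ratios (95%). With 1 library per group no test was run. A ratio was given only where sham held more than 3 UMIs.

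Markers, lists, members and the rule for named genes were chosen with earlier results of these data known. The genes named are the 3 members at each end of the log2 ratio on each day (microglia-like and endothelial-like cells), members that the study discusses for microglia, isoform families, the 5 highest members, core subunits, and those highest in 1 class. Others are said to be chosen after their values were seen. The gate uses genes such as P2ry12 and Cx3cr1 that may themselves change after injury. Chosen after values were seen were the doublet score limit of 0.2, the 1000 nt limit, the letters of the NRF1 motif (after the promoters of Uqcr10, Uqcr11, Ndufa4 and Cox6a1 had been viewed), the promoters printed and the rule that named graph clusters. Doublets were scored with Scrublet and kept, except in the alternative without them: its automatic limit called too few cells, and the score limit marked 3.06% of kept cells. Ensembl symbols were matched to RefSeq promoters by name. Uqcrc2, Ndufa4l2, Cox6a2 and Cox4i2 were not in that table.

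Python 3.11.15, numpy 2.4.6, pandas 2.3.3, scipy 1.17.1, scanpy 1.11.5, scikit-learn 1.9.0 and matplotlib 3.10.9 were used, and the calculations were tested on simulated data. Alternatives covered the filters on cells, the gate, graph clusters without integration, doublets, thinning, weighting of cells, scaling totals, the members, the added CPM and the expression limit. The bulk RNA-seq and proteomic data of the study were not analysed here. The values of 1 member are not reported here.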

Additional observations from a re-analysis of the deposited data

Results flagged for a closer look

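In 5 sums the classes moved in opposite directions against the same sham library. With 1 library per group, none of these differences was tested. For the 82 members on day 7, microglia-like cells stood at 1.14-fold and vascular smooth muscle-like cells at 0.737-fold, with 1 class above sham and 4 below it. Complex II on day 1 stood at 1.73-fold in microglia-like cells and 0.888-fold in vascular smooth muscle-like cells, and its interval lay below 1 in 2 classes. On day 7 complex III stood at 1.16 and 0.706, complex IV at 1.24 and 0.699 and complex V at 1.19 and 0.773 in the same pair of classes. The microglia-like day 7 ratios of complexes I and II were 1.03 (0.972 to 1.10) and 1.21 (0.952 to 1.56), with intervals that include 1.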

How the results depend on the processing

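No paired analysis was possible because each group is 1 library without a replicate number, and for the same reason no library could be left out of its group. Over the alternatives 0 of 60 sums changed direction, and 24 of 60 stayed within the interval of the ratio. Of 72 counts 59 stayed within 1.5 times the count. Direction was scored for the sums only. The microglia-like day 7 count was 5 rises and 1 fall in the main setting, and 1 rise and 2 falls with the stricter gate. The microglia-like day 1 count stayed between 52 and 59 members under its 12 alternatives. For the microglia-like sums, the ratios on day 1 were 2.82 with up to 6000 genes per cell, 2.58 with at most 5% mitochondrial UMIs, 2.33 with the looser gate, 2.21 with graph clusters, 2.62 with cells thinned to 1000 UMIs, 2.24 as the mean of per-cell shares and 2.74 without mitochondrial and ribosomal UMIs in the total. On day 3 they were 1.63 (6000 genes), 1.32 (looser gate), 1.31 (clusters) and 1.49 (thinned), and on day 7 they were 1.19 (6000 genes), 1.09 (looser gate), 1.10 (stricter gate), 1.03 (clusters), 1.23 (thinned) and 1.19 (without mitochondrial and ribosomal UMIs). The microglia-like day 3 count was 36 with 6000 genes, and the day 7 count was 2 (looser gate), 3 (stricter gate), 2 (clusters), 19 (thinned) and 13 (per-cell shares). Counts in this section take rises and falls together, and the 19 were 16 rises and 3 falls. The share of all genes past 1.5-fold under each alternative is not given, so these counts have no background beside them. For endothelial-like cells the day 1 ratios were 1.37 (6000 genes), 1.34 (5% mitochondrial), 1.36 (looser gate), 1.45 (thinned), 1.41 (per-cell shares) and 1.42 (without mitochondrial and ribosomal UMIs). The day 3 ratios were 1.05 (6000 genes), 1.07 (5% mitochondrial), 1.11 (looser gate), 1.08 (stricter gate), 1.08 (clusters), 1.16 (thinned) and 1.16 (per-cell shares). The day 7 ratios were 0.772 (6000 genes), 0.798 (5% mitochondrial), 0.850 (thinned), 0.841 (per-cell shares), 0.801 (without mitochondrial and ribosomal UMIs) and 0.812 (subunits in the strict sense). The endothelial-like day 1 count was 22 (thinned), 23 (without mitochondrial and ribosomal UMIs) and 21 (centred on the median of all genes), the day 3 count was 1 (thinned), and the day 7 count was 4 (6000 genes), 0 (thinned) and 0 (per-cell shares). The cause of these shifts was not tested. The 116 sham microglia-like cells, with 402150 UMIs, limit the precision of each microglia-like ratio.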

Other observations

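Of the members at the expression limit in microglia-like cells whose promoter was in the RefSeq table, 29 of 48 that rose on day 1 held NRF1 or ETS letters (60.4%), and 4 of 14 that did not rise (28.6%). The NRF1 letters were chosen after promoters of rising members had been viewed, so this is a description with no test. Neuron-like cells were at 27532 CPM in sham, 24762 CPM on day 1 and 34352 CPM on day 3, and their day 1 level was below sham, unlike that of the 5 classes compared. Astrocyte-like cells were at 23711, 29871 and 22711 CPM on the same days. Neutrophil-like cells on day 3 (7731 CPM, 51 cells) and erythrocyte-like cells in sham (1692 CPM, 54 cells) had the lowest sums of the classes described.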
